A study of Mus musculus with 4 samples.

Results

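The 10 genes described here are feedback inhibitors and transcription targets of beta-catenin signalling: Notum, Axin2, Nkd1, Nkd2, Znrf3, Rnf43, Lgr5, Lef1, Tcf7 and Sp5. They were chosen by gene symbol, and all 10 were found among the 23361 genes of the deposited table. RNA was sequenced from 4 libraries of cultured mouse mammary tumour cells (strain C3HeB/FeJ) that derive from the Chaos3 mouse, which carries a mutant allele of the replication helicase gene Mcm4, so all libraries share that background. The 2 libraries labelled Low came from the parental tumour line 23116 MT, with low Arid1a. The 2 libraries labelled High came from its add-back clones AB-C1 and AB-C2, 1 library per clone, transduced with a lentiviral vector to overexpress Arid1a, which encodes a BAF (SWI/SNF) chromatin remodelling subunit that contacts DNA. Neither the promoter of the vector nor which High library is which clone is given in the sources used here. Separate cultures are not stated for the Low duplicates. P-values therefore reflect the spread among these 4 samples alone, part or all of it possibly technical, and in the High group clone and add-back cannot be told apart.

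In canonical Wnt signalling, a secreted Wnt protein bound to a Frizzled receptor and an LRP co-receptor stops a cytoplasmic destruction complex from degrading beta-catenin. Beta-catenin then enters the nucleus and activates genes bound by TCF/LEF transcription factors. Many of those genes encode inhibitors of the same pathway, so their RNA is widely used as a readout of pathway activity. In the mammary gland Wnt signalling acts in ductal development and in stem and progenitor cells, and its forced activation causes mammary tumours in mice.

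The libraries held 13889858 to 28110812 fragments. Arid1a itself was at 10.25 and 11.7 FPKM (the authors' fragment values scaled for transcript length and library size) in the libraries labelled Low and lower, at 6.16 and 7.22 FPKM, in those labelled High. Its log2 fold change was -0.71 ± 0.23 (SE, 2 libraries per group) and edgeR's quasi-likelihood test with Benjamini-Hochberg adjustment was not passed (adjusted p = 0.165, and 0.0333 to 0.878 over 13 alternatives, 1 of them past the threshold). It is not known whether RNA from the vector could be counted under this gene. The groups are therefore called by their labels, and no rise of Arid1a RNA stands behind any direction below. The epithelial genes Krt8, Krt18, Krt14, Epcam and Cdh1 were detected in all 4 libraries. Krt5, the other epithelial marker, had 10 and 6 fragments in the Low libraries, 0 in High library 1 and 25 in High library 2. The summed level of 6 epithelial markers was 2378 and 1641 CPM (counts scaled to library size, with TMM normalisation) in the Low libraries, 2057 CPM in High library 1 and 4730 CPM in High library 2. That of 6 fibroblast markers came to 3329 and 2932 CPM in the Low duplicates, mostly from Col1a1, and to 918 and 163 CPM in the clones. The list did not move one way: of its 4 tested genes 2 had log2 fold changes above 0 and 2 below. Dcn was at 4.19 and 5.45 CPM in the Low duplicates and at 195 and 19.6 CPM in High libraries 1 and 2, and Pdgfra at 79.3 and 97.3 CPM against 234 and 26.6 CPM. Lum was at 0 in all libraries. Of 3 macrophage markers 2 were found, and their sum was higher in the clones, at 22.1 and 27.9 CPM against 9.40 and 9.55 CPM. Most of it was Csf1r (log2 fold change 1.48 ± 0.31, SE, 2 libraries per group, edgeR adjusted p = 0.0579, DESeq2 adjusted p = 0.00153). The other, Cd68, did not follow, at 0.735 and 0.878 CPM in the Low duplicates, 1.34 CPM in High library 1 and 0.448 CPM in High library 2. The part of these marker differences in the results below was not tested, and in bulk RNA fewer cells of a type and less RNA per cell cannot be told apart.

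Upstream sequence was taken from RefSeq promoter windows (build GRCm38.p6), which matched 7 of the 10 genes with 12 windows, some of them for alternative starts. Notum, Znrf3 and Lgr5 had no window. The 250 bases before each start site were searched on both strands for motifs of the TCF/LEF type: CTTTGAA as well as CTTTGAT, and also CTTTGTA together with CTTTGTT. These motifs have equal length, share their first 5 letters and differ within the last 2, so no 2 of them can match at the same position and strand. Of the 12 windows, 2 held a match, 1 of the 4 for Lef1 and the only window of Sp5, which is 16.7% against 14.8% of all 32851 windows of that length. Counted by gene, it was 2 of the 7, or 28.6%, against 16.8% of 27025 genes. A gene counted if any of its windows held a match, so genes with more windows had more occasions for one. The 7 genes had 12 windows, and the 27025 genes had 32851. Windows are shown for Axin2, which rose in the libraries labelled High, and for Sp5, which had the most matches and almost no RNA. Both are read 5′ to 3′ on the plus strand, with matches in capitals.
Axin2 (chr11:108920099-108920348): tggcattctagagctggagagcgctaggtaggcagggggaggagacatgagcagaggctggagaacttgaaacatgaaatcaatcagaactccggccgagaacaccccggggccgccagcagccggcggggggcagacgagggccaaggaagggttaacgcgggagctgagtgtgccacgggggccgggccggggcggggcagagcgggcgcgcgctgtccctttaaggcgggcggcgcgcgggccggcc
Sp5 (chr2:70474673-70474922): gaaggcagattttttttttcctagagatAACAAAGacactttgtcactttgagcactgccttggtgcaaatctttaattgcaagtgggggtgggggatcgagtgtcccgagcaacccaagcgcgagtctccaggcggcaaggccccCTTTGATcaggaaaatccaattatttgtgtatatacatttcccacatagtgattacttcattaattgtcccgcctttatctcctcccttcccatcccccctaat
The Axin2 window held 0 matches. The Sp5 window held 2, CTTTGTT in reverse complement starting at -222 and CTTTGAT as written starting at -104, counted from the start site. These are matches of letters, not measured binding sites.

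On the FPKM scale, which allows levels to be compared between genes, the order of the 10 genes differed between the groups. In both Low libraries the order was led by Nkd2, Tcf7, Znrf3 and Notum. In both High libraries Notum stood first, followed by Nkd2 and Tcf7. Axin2 and Lef1 exchanged places between the Low libraries, and Axin2 and Znrf3 between the High libraries, so those neighbours did not differ beyond their spread. Lgr5 lay below 0.4 FPKM in all libraries, and Rnf43, Nkd1 and Sp5 were lower still on average.

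**Figure D1:**
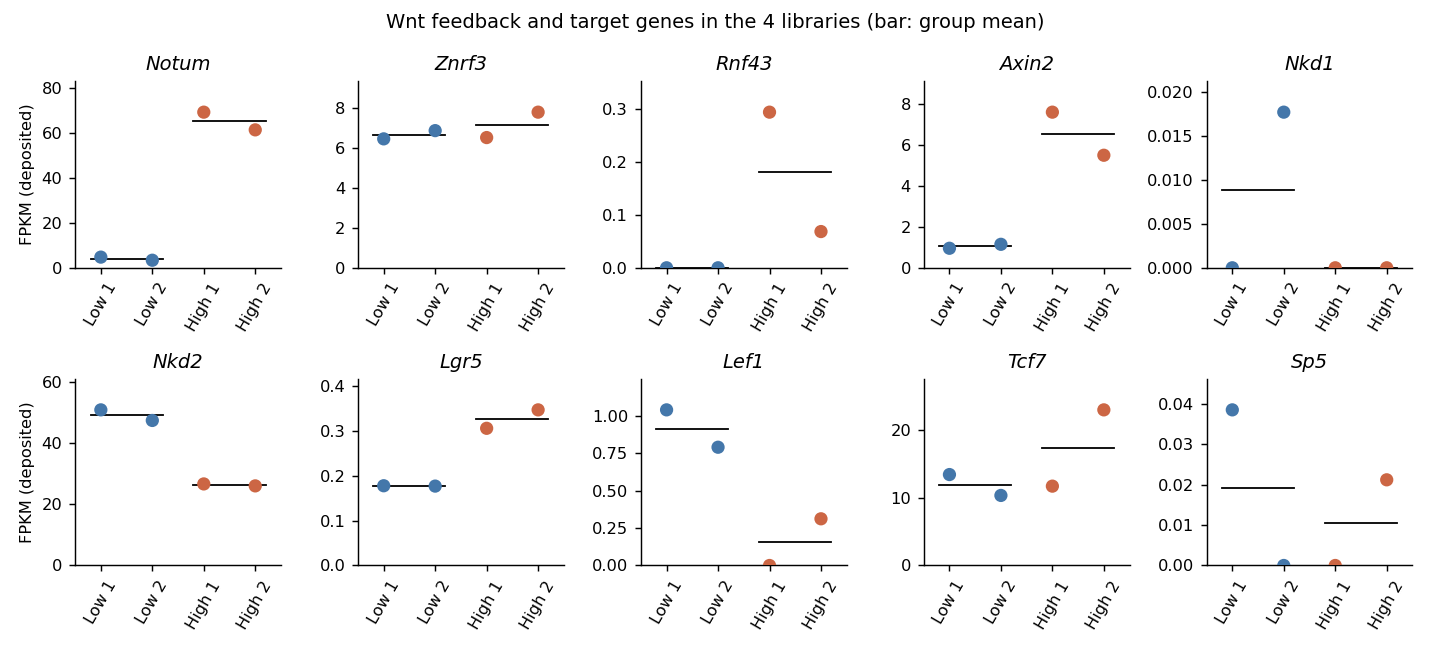
Deposited FPKM of the 10 genes (y axes, linear, each with its own scale) in the 4 libraries (x axes), with 1 point per library and a bar at each group's mean. Notum and Axin2 are high in both High libraries, Nkd2 is low in both, and Tcf7 is high in High library 2, at 22.95 FPKM, against 10.33 to 13.41 FPKM in the other 3.

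Of the 10 genes, 7 passed edgeR's filter on low counts, which asks for about 10 fragments in at least 2 libraries. The other 3, Nkd1, Rnf43 and Sp5, were not tested. In the comparison of High with Low, 2 of the 7 rose (Notum and Axin2) and 0 fell, against 2.47% of all 12987 tested genes called in either direction, 1.14% higher and 1.33% lower. At an unadjusted p under 0.05 there were 3 of the 7, the third being Nkd2, against 18.1% of all tested genes. DESeq2 called 2 rises and 1 fall, with 8.75% of all genes called, and limma-voom 2 rises and 0 falls, with 2.47%. With the replicate number as a block, edgeR called 2 rises and 0 falls, with 3.61% of all genes called. The groups did not overlap in 5 of the 7, with High above Low in 3 and below in 2, against 25.9% and 25.1% of all tested genes, or 51% in all. The median log2 fold change of the 7 was 0.56, beside 0.03 over all tested genes. These genes were chosen with earlier results of these data known, so the counts describe them only.

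The secreted and membrane inhibitors act outside the cell or at its surface. Notum, a secreted enzyme that removes the lipid Wnt proteins need for receptor binding, lies on the minus strand of chromosome 11 (120653788 to 120661175, mm10). It had 118 and 168 fragments in the Low duplicates and 2185 and 2773 in the clones. In FPKM these were 4.74 and 3.36 against 69.2 and 61.3. Both High libraries lay more than 10-fold above both Low libraries. Its log2 fold change was 4.03 ± 0.29 (SE, 2 libraries per group, edgeR adjusted p = 0.0021).

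Znrf3 and Rnf43 are related membrane ubiquitin ligases that clear Frizzled receptors from the cell surface. Znrf3 (chromosome 11, 5276324 to 5444847, mm10) was at 6.47 and 6.88 FPKM in the Low libraries and at 6.53 and 7.81 FPKM in the High libraries. The groups overlapped, and the log2 fold change of 0.11 ± 0.24 (SE, 2 libraries per group) missed the threshold in edgeR (adjusted p = 0.847). Without High library 2 it was -0.027, with the sign turned. Rnf43 (chromosome 11, 87662722 to 87735539, mm10) had 0 fragments in both Low libraries, 21 in High library 1 and 7 in High library 2. With a floor of 3 fragments over the Low group, it was at least 9.17-fold higher in the pooled libraries labelled High. Taken singly against the same floor, High library 1 was at least 16.7-fold higher and High library 2 at least 3.89-fold. Fitted without the filter on low counts, where 4.88% of all genes were called, it missed the threshold of edgeR's test (adjusted p = 0.102). With a library left out, it passed the filter only where High library 1, with its 21 fragments, remained. The log2 fold change was then 7.57 without High library 2, 7.11 without Low library 1 and 6.79 without Low library 2. These are fitted values against 0 fragments in the Low group, so a call in those fits carries no weight for Rnf43. Rnf43 made up 4.31% and 0.869% of the summed FPKM of the 2 ligases in the High libraries, so Znrf3 held nearly all of it in every library.

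The intracellular inhibitors went in different directions. Axin2, a scaffold of the destruction complex that the pathway itself induces, lies on the plus strand of chromosome 11 (108920349 to 108950783, mm10). It had 53 and 128 fragments in the Low duplicates and 536 and 555 in the clones. In FPKM these were 0.954 and 1.147 against 7.61 and 5.5, and every High value was above every Low value. Its log2 fold change was 2.65 ± 0.35 (SE, 2 libraries per group, edgeR adjusted p = 0.0118). Its paralog Axin1 was the more abundant scaffold throughout, at 37.5 and 31.8 FPKM in the Low libraries and 26.7 and 28.8 FPKM in the High libraries. Axin2 was 2.48% and 3.48% of the summed Axin FPKM in the Low duplicates and 22.2% and 16.0% in the clones.

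Nkd1 and Nkd2 are Naked cuticle proteins, which bind Dishevelled and dampen Wnt signalling. Nkd2 (chromosome 13, 73818534 to 73847631, mm10) stood at 50.95 and 47.5 FPKM in the Low libraries and at 26.7 and 26.1 FPKM in the High libraries. The values within each group lay close together, and the mean CPM of the Low group was 1.85 times that of the High group. The log2 fold change was -0.89 ± 0.21 (SE, 2 libraries per group), and edgeR's test was not passed (adjusted p = 0.0798). DESeq2 (adjusted p = 0.00239) and edgeR without the filter on low counts (adjusted p = 0.0335) did call it. Over the alternatives that kept every library, the adjusted p ran from 0.00239 to 0.184. The log2 fold change was -0.84 without Low library 1 and -0.95 without Low library 2. It was -0.91 without High library 1 and -0.88 without High library 2. Nkd1 (chromosome 8, 88521354 to 88594884, mm10) had 2 fragments in Low library 2 and 0 in the other 3 libraries. That is under the floor of 3 fragments, so no fold is given.

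**Figure D2:**
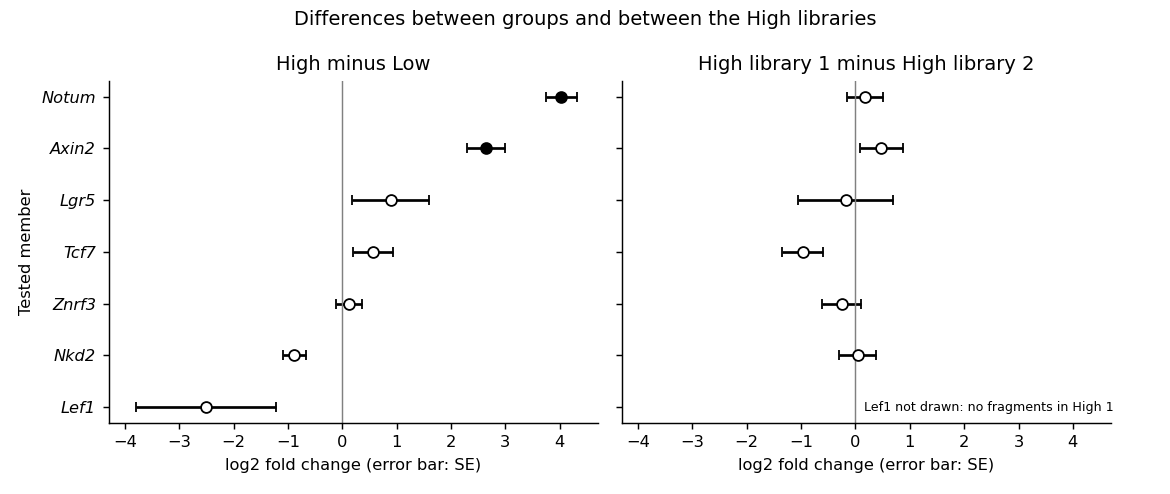
Log2 fold changes (x axes) of the 7 tested genes (y axis) between High and Low (left) and between High library 1 and High library 2 (right), with SE bars and filled points where edgeR's adjusted p is under 0.05. Notum, at 4.03, and Axin2, at 2.65, are the filled points on the left, and Lef1 is not drawn on the right because it had 0 fragments in High library 1.

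The calls for Notum and Axin2 were lost when either Low library was left out, while the sizes changed little. Without Low library 1 the log2 fold changes were 4.29 for Notum and 2.52 for Axin2, and without Low library 2 they were 3.78 and 2.78, in each case without passing edgeR's test. The adjusted p was then 0.360 and 0.318 for Notum, in a range over 13 alternatives of 1.13e-37 to 0.360. For Axin2 it was 0.559 and 0.508, in a range of 4.77e-14 to 0.559. In those fits the spread comes from the High pair alone and edgeR called 0 of all tested genes (0%), with 972 (7.09%) and 800 (6%) at an unadjusted p under 0.05. Without High library 1 or High library 2 both genes were called, in fits that called 16.3% and 18.6% of all genes (26.7% and 29.5% at an unadjusted p under 0.05).

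Lgr5, a receptor for R-spondins and a marker of stem cells in several epithelia, lies on chromosome 10 (115450311 to 115587780, mm10). It had 11 and 22 fragments in the Low duplicates and 24 and 39 in the clones. In FPKM these were 0.178 and 0.177 against 0.306 and 0.348. The groups did not overlap, but the counts were low. Its log2 fold change was 0.89 ± 0.71 (SE, 2 libraries per group), short of the threshold in edgeR's test (adjusted p = 0.559). Its relatives Lgr4 and Lgr6, which bind R-spondins too, were far more abundant. Lgr5 was at most 0.76% of the summed FPKM of the 3 receptors in any library. Lgr4 was at 36.9 and 44.4 FPKM in the Low libraries, 45.4 FPKM in High library 1 and 7.38 FPKM in High library 2. Lgr6 was at 14.6 and 14.1 FPKM in the Low libraries, 19.8 FPKM in High library 1 and 38.0 FPKM in High library 2. Lgr6 therefore made up 83.1% of the family's FPKM in High library 2 and 24.0% to 30.2% in the other 3.

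Among the transcription factors, Lef1 and Tcf7 carry the beta-catenin signal on DNA and are induced by it as well. Lef1 (chromosome 3, 131110471 to 131224356, mm10) had 43 and 56 fragments in the Low libraries, 0 in High library 1 and 21 in High library 2. In FPKM these were 1.04 and 0.791 against 0 and 0.312. Both High libraries lay below both Low libraries, High library 1 at least 13.8-fold below the pooled Low level and High library 2 by 2.83-fold. The log2 fold change was -2.51 ± 1.29 (SE, 2 libraries per group) and missed the threshold of edgeR's test (adjusted p = 0.378). It passed without High library 2 (adjusted p = 2.07e-05), where the only High library had 0 fragments, in a range over 12 alternatives of 2.07e-05 to 0.887.

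Lef1 is also a T-cell gene, and so the T-cell markers are given beside it. Of 8 such markers, 3 (Cd3e, Cd8a and Cd2) were at 0 in all libraries and 7 were under 1 CPM in all of them. Their sum was 2.13 and 1.83 CPM in the Low libraries, 0 in High library 1 and 1.1 CPM in High library 2. Most of it was the kinase gene Lck, with 27 and 38 fragments in the Low libraries, 0 in High library 1 and 21 in High library 2, the same order as Lef1. Their part in the Lef1 result, or in that of Tcf7 given next, was not tested.

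Tcf7 (chromosome 11, 52252371 to 52283014, mm10) was at 13.4 and 10.3 FPKM in the Low libraries, 11.7 FPKM in High library 1 and 22.95 FPKM in High library 2. High library 1 fell between the Low libraries, and the log2 fold change of 0.56 ± 0.37 (SE, 2 libraries per group) missed the threshold in edgeR (adjusted p = 0.475). Without High library 1 it was 0.97. Without High library 2 it was -0.011, so High library 2 alone set its sign. Over the alternatives that kept every library, the adjusted p ran from 0.418 to 0.717. Tcf7 was the leading TCF/LEF gene in all 4 libraries, with 43.8% and 40.7% of the family's summed FPKM in the Low libraries, 40.6% in High library 1 and 69.7% in High library 2. The other relatives, Tcf7l1 and Tcf7l2, were at 5.06 and 4.59 FPKM in High library 2 and at 6.31 to 10.1 FPKM in the other 3. Lef1 was at most 3.4% of the family in any library.

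Sp5, a zinc-finger factor that represses other targets of the pathway, lies on chromosome 2 (70474923 to 70477729, mm10). It had 1 fragment in Low library 1, 0 in Low library 2, 0 in High library 1 and 1 in High library 2. With both groups under the floor of 3 fragments, no fold is given. Its window held 2 motif matches and that of Axin2, which rose, held 0. These windows were picked for display, and Notum had no window, so no relation between matches and RNA is drawn.

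**Figure D3:**
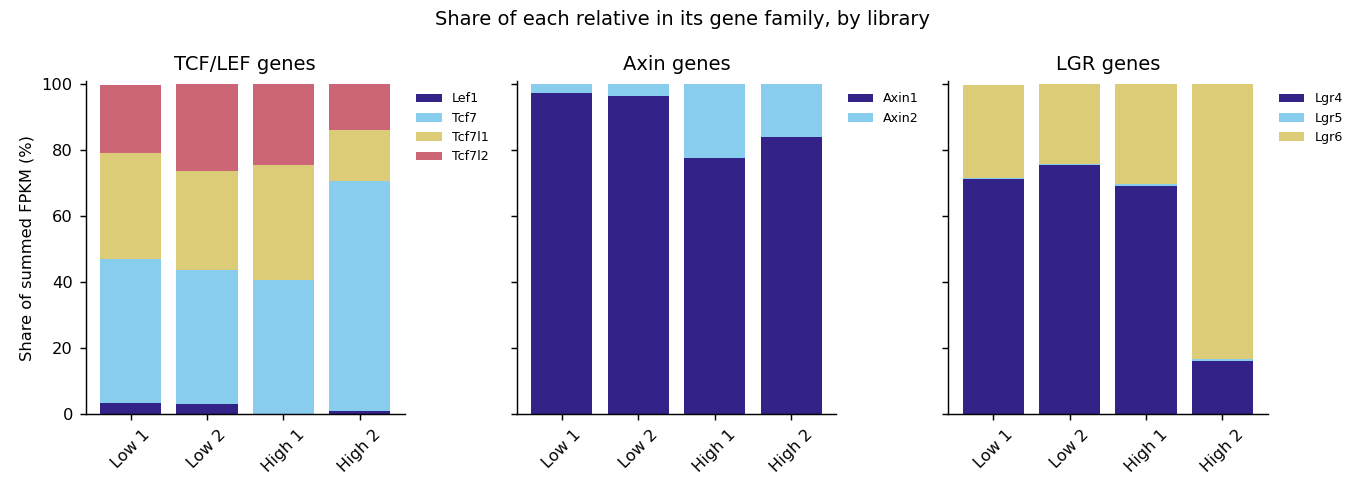
Share (y axis, percent) of each relative in the summed FPKM of its gene family, by library (x axis), for the TCF/LEF, Axin and LGR genes. Axin2 takes 22.2% and 16.0% of the Axin sum in the High libraries against 2.48% and 3.48% in the Low libraries, and High library 2 stands apart in the Tcf7 share (69.7%) and the Lgr6 share (83.1%).

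The High libraries were then compared with each other, in a fit that takes the spread from the Low pair and so assumes that a single High library varies like the Low duplicates. Of the 7 tested genes 0 were higher in High library 1 and 1 was lower, Lef1, against 10.9% of all 12987 tested genes called in either direction, 6.47% higher and 4.46% lower (21.1% at an unadjusted p under 0.05). Lef1 was at least 4.88-fold higher in High library 2 than the floor of 3 fragments in High library 1 (edgeR adjusted p = 0.0135), and DESeq2 did not call it (adjusted p = 0.0857, the highest of 4 alternatives, the lowest being 0.0137). Tcf7 was 1.96-fold higher in High library 2 (log2 difference -0.97 ± 0.37, SE, 1 library each, edgeR adjusted p = 0.0748). For Notum the log2 difference was 0.18 ± 0.33 and for Axin2 0.47 ± 0.40 (SE, 1 library each, edgeR adjusted p = 0.841 and 0.570). A p that misses the threshold does not show that the clones were alike. For Nkd2 the log2 difference was 0.04 ± 0.35 (SE, 1 library each, edgeR adjusted p = 0.976).

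Around these genes, other lists of the pathway were compared between High and Low. With 2 libraries per group, a list without calls does not show that its genes were alike. For all lists from here on, the shares of all tested genes called were 2.47% by edgeR, 8.75% by DESeq2 and 2.47% by limma-voom. At an unadjusted p under 0.05 in edgeR the share was 18.1%. Beta-catenin itself, Ctnnb1, was at 391 and 422 FPKM in the Low libraries and 560 and 432 FPKM in the High libraries (log2 fold change 0.30 ± 0.23, SE, 2 libraries per group, edgeR adjusted p = 0.548). Of 10 genes of the destruction complex and beta-catenin, all tested, edgeR called 0, with 0 at an unadjusted p under 0.05 and 0 by DESeq2 or limma-voom. Axin2, given above, was not counted in this list. The list included the kinase gene Csnk1a1, at 149 to 184 FPKM over the 4 libraries, and the ubiquitin ligase gene Fbxw11, at 39.9 to 47.5 FPKM. The median log2 fold change was 0.02. Of 11 nuclear partners, which bridge or block beta-catenin on DNA, edgeR likewise called 0, with 0 at an unadjusted p under 0.05 and 0 by the other 2 tools, and the median was -0.14. The most abundant were Pygo2, a coactivator (31.9 to 38.8 FPKM), Ctnnbip1, an inhibitor of the beta-catenin to TCF contact (19.0 to 30.1 FPKM), and Tle3, a corepressor (20.7 to 25.1 FPKM).

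On the receptor side, 18 of 21 genes were tested, of which edgeR called 0 higher and 1 lower (5 at an unadjusted p under 0.05), DESeq2 1 higher and 2 lower, and limma-voom 0 and 1. The additional DESeq2 calls were the Frizzled receptor genes Fzd6 (higher) and Fzd7 (lower). The faller was Rspo3, a secreted R-spondin, which shields Frizzled receptors from the ligases Znrf3 and Rnf43. It had 32 and 75 fragments in the Low libraries, 0 in High library 1 and 1 in High library 2, a ratio of 109 (95% interval 19.1 to 4342, counting error only, edgeR adjusted p = 0.0303). The median of the 18 was 0.14. The signal transducer Dvl1 was at 30.9 and 21.8 FPKM in the Low libraries and at 31.3 and 39.5 FPKM in the High libraries. The co-receptor Lrp5 was at 19.8 and 17.8 FPKM against 32.1 and 26.4 FPKM (log2 fold change 0.65 ± 0.23, SE, 2 libraries per group, edgeR adjusted p = 0.194).

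Notum removes the lipid that the enzyme Porcn attaches to Wnt proteins, and Porcn rose too. It was at 9.03 and 7.38 FPKM in the Low libraries and at 21.3 and 22.6 FPKM in the High libraries, with a log2 fold change of 1.43 ± 0.27 (SE, 2 libraries per group, edgeR adjusted p = 0.0421). The call was lost without Low library 1 (adjusted p = 0.645) or Low library 2 (0.770), and narrowly with the replicate block (0.0518), in a range over 13 alternatives of 6.67e-05 to 0.770. Of 9 genes for this lipid and for the glypicans, 6 were tested, of which Porcn was the 1 riser and 0 fell (2 at an unadjusted p under 0.05, 1 rise and 1 fall, that of the glypican gene Gpc4, with each of DESeq2 and limma-voom, median 0.33). Wls, which carries Wnt proteins to the surface, was at 83.5 and 94.96 FPKM in the Low duplicates, 145.6 FPKM in High library 1 and 57.4 FPKM in High library 2. The glypican gene Gpc1 was at 55.9 to 114 FPKM. Trabd2b, a membrane protease that inactivates Wnt proteins, was at 10.6 and 11.6 FPKM in the Low libraries, 69.3 FPKM in High library 1 and 9.28 FPKM in High library 2. It was 7.48-fold higher in High library 1 than in High library 2 (1 library each, edgeR adjusted p = 8.08e-13).

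Of 26 other genes reported as targets of the pathway, 16 were tested, of which 2 rose and 0 fell, with a median of 0.20. At an unadjusted p under 0.05 there were 8, against 18.1% of all tested genes. DESeq2 called 3 rises and 4 falls, with 8.75% of all genes called, and limma-voom 2 and 1, with 2.47%. The list was chosen with earlier results of these data known, so these counts describe it only. Id2, an inhibitor of differentiation factors, was at 17.6 and 16.6 FPKM in the Low libraries and 55.2 and 68.8 FPKM in the High libraries (log2 fold change 1.87 ± 0.25, SE, 2 libraries per group, edgeR adjusted p = 0.0126). Fst, the activin antagonist follistatin, was at 5.74 and 6.4 FPKM against 21.05 and 15.1 FPKM (log2 fold change 1.58 ± 0.29, SE, 2 libraries per group, edgeR adjusted p = 0.0385). Other targets were lower in both clones without passing edgeR's test, and these are the 4 falls called by DESeq2. Wisp1, a secreted matricellular protein gene, was at 54.7 and 68.0 FPKM against 29.4 and 22.0 FPKM (log2 fold change -1.25 ± 0.25, SE, 2 libraries per group, edgeR adjusted p = 0.0512, and 0.00348 without the filter on low counts), and it was the fall called by limma-voom. Vcan, the proteoglycan versican, had a log2 fold change of -1.54 ± 0.31 (SE, 2 libraries per group, edgeR adjusted p = 0.0554, and 0.00156 without the filter). Apcdd1, a membrane inhibitor of Wnt signalling, had -1.07 ± 0.28 (SE, 2 libraries per group, edgeR adjusted p = 0.0984, and 0.0295 without the filter). Jag1, a Notch ligand, was at 65.1 and 75.7 FPKM against 8.77 and 23.2 FPKM (log2 fold change -2.13 ± 0.48, SE, 2 libraries per group, edgeR adjusted p = 0.106). The additional DESeq2 rise was the growth factor gene Bmp4, at 2.24 and 1.64 FPKM against 21.9 and 6.68 FPKM (log2 fold change 2.89 ± 0.63, SE, 2 libraries per group, edgeR adjusted p = 0.0831, and 0.0230 without the filter). The cell-cycle gene Ccnd1 was at 184 to 247 FPKM in 3 libraries and at 603 FPKM in High library 2, and did not pass (log2 fold change 1.12 ± 0.43, SE, 2 libraries per group, edgeR adjusted p = 0.258). Myc, at 52.8 to 71.3 FPKM, and the adhesion receptor gene Cd44, at 96.9 to 127 FPKM, overlapped between the groups. Ascl2, Mmp7, Fgf20 and T (brachyury) had 0 fragments in all 4 libraries. Rspo3, Porcn, Id2 and Fst, too, were not called by edgeR without either Low library.

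**Figure D4:**
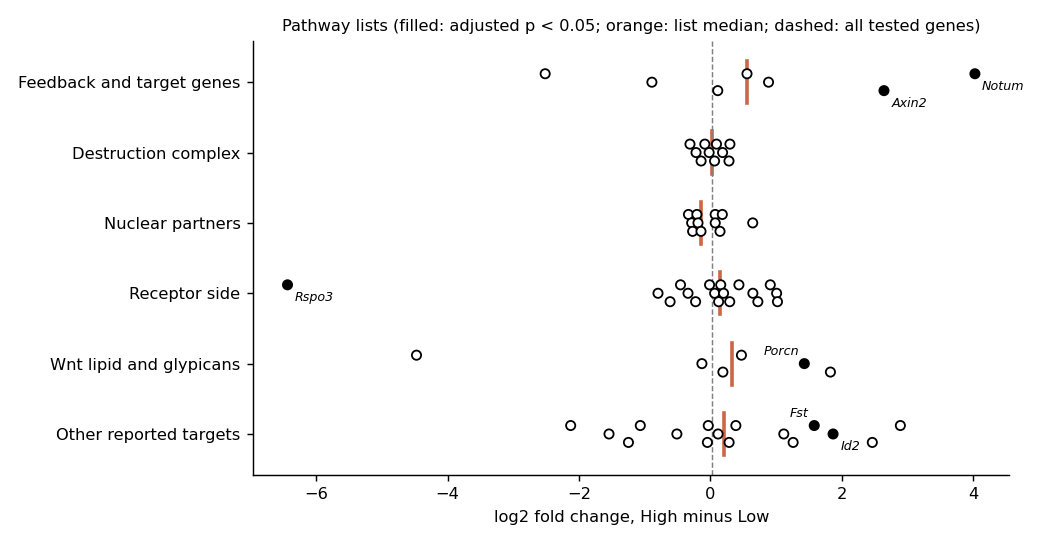
Log2 fold change between High and Low (x axis) of each tested gene of 6 lists (y axis), filled where edgeR's adjusted p is under 0.05, with each list's median in orange and the median of all tested genes dashed. The destruction complex, drawn without Axin2, lies close to 0, with a median of 0.02. Axin2 is drawn among the feedback and target genes. Notum, Axin2, Porcn, Id2 and Fst are filled on the right and Rspo3, fitted with 1 fragment in the High group, on the left.

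The tested genes whose pattern over the 4 libraries lay nearest to that of Notum, by the distance of centred log2 CPM with a prior count of 2 among 12986 genes, were Vat1l (distance 0.501), Nipal1 (0.564) and Kazald1 (0.578). Nipal1 was at 1.47 and 1.5 CPM in the Low duplicates and at 26.7 and 33.7 CPM in the clones. Vat1l had 0 fragments in both Low libraries and 1.17 and 1.425 CPM in the clones, so its likeness rests on low counts. Nearest to Axin2 were Gm2022 (0.161), Celf5 (0.184) and Lonrf3 (0.287). Lonrf3 was at 3.53 and 4.32 CPM in the Low duplicates and at 27.45 and 16.2 CPM in the clones. Gm2022 and Celf5 were under 2 CPM in all 4 libraries. With 4 libraries in 2 groups, such a ranking describes these libraries only.

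In the mm10 annotation (GENCODE M21), exons of Notum share 708 bases with the antisense gene Notumos and 210 with Myadml2os. Axin2 exons share 209 bases with the antisense gene Gm11670, and Lef1 exons 1208 bases with Gm43352. The libraries were made with a strand-specific kit, but the strand setting of the counting is not given in the sources used here, so fragments of such partners cannot be told apart from those of the 3 genes.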

How the data were processed

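Per the labels, 500 ng of DNase-treated total RNA was made into libraries with a directional kit for Illumina sequencing. The submitters' processing notes name cutadapt 1.5, TopHat2 2.0.13, Cuffdiff 2.2.1 and the build mm10. Per the file headers, the authors' table lists, for each gene in each library, an estimated count of fragments, a signal scaled by 1 factor per library (0.7291 to 1.4646) and FPKM. Of the deposited counts 99.18% were whole within 1e-06, and all were rounded. A failed status marked 11 genes, of which 0 are among the 10 described.

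The numbers 1 and 2 name libraries within a group and are not tied to the numbers in the labels. Low duplicates differed beyond sampling noise (chi-square per degree of freedom 32.4, and 123 between the High libraries), so none were merged. Tests used edgeR 4.0.16 (quasi-likelihood, robust, TMM, two-sided, minimum count 10, adjusted p threshold 0.05) in R 4.3.3, with 2 residual degrees of freedom between groups and 1 between the High libraries. SE is the log2 fold change divided by the root of its F statistic. DESeq2 1.42.0 and limma 3.58.1 were alternatives. No permutation test was run, since the smallest exact p with 2 against 2 is 0.333. Floors cover counting error only: 3 fragments are 0.110 to 0.220 CPM after TMM normalisation.

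The genes and lists were chosen with earlier results of these data known. Named besides the 10 are pathway genes past the threshold, the 3 most abundant per list, and the 3 nearest patterns to Notum and Axin2. Axin1, Tcf7l1, Tcf7l2, Lgr6, the single marker genes, genes at 0 and those called only by another tool were added after their values were seen. So were genes called only between the High libraries. Marker lists covered 6 epithelial, 6 fibroblast, 8 T-cell, 3 endothelial and 3 macrophage genes. The 3 endothelial genes were under 1 CPM in all libraries.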

Additional observations from a re-analysis of the deposited data

Results flagged for a closer look

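The High libraries, which the labels give as 2 clones, differed from each other in the genes below by edgeR's test of that difference. The spread was taken from the Low pair, and 10.9% of all 12987 tested genes were called. Some of the genes below were named after their values were seen, so their number is no result about them. All values here are log2 fold changes of High library 1 over High library 2. Of the 10 feedback and target genes, Lef1 was called, at -7.15, a fitted value that depends on the prior count because High library 1 had 0 fragments. The T-cell gene Lck, with the same 0 and 21 fragments, had the same -7.15. Among genes of the pathway, Lgr4 had 2.62 (adjusted p = 1.15e-10) and Lgr6 -0.94 (adjusted p = 0.0476, and 0.0494 to 0.0565 over 5 alternatives, 1 of them past the threshold). Trabd2b had 2.90, Wls 1.34 and Gpc4 3.26. Of the reported targets, Ccnd1 had -1.28, Jag1 -1.40 and Bmp4 1.71. The epithelial markers Krt8 (-1.97), Krt18 (-1.65), Krt14 (-1.06) and Epcam (-1.08) were lower in High library 1. So was Krt5, at -7.40, also a fitted value with 0 fragments in High library 1, against 25 in High library 2. Cdh1, the other epithelial marker, had -0.56 and was not called. The fibroblast markers Col1a1 (1.98), Dcn (3.31), Pdgfra (3.14) and Pdgfrb (2.07) were higher there. Also called, but not described above, were Pygo1, Tle4, Fzd1, Rspo2 and Tnfrsf11b, higher in High library 1, and Sp8 and Tnfrsf19, lower there. The part of the marker differences in the others was not tested.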

How the results depend on the processing

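Between High and Low, edgeR called 148 genes higher and 173 lower. Without the filter on low counts it called 437 and 377, and DESeq2 called 611 and 525. With a library left out, the counts ran from 0 to 1406 higher and from 0 to 1069 lower, both 0 coming from the fits without a Low library. Of the 10 genes, 0 to 3 were called higher and 0 to 2 lower with a library left out, the additional ones being Tcf7, Nkd2, Rnf43 and Lef1, and 1 was lower (Nkd2) with DESeq2 and without the filter. With the replicate number as a block, 223 genes were higher, Porcn missed the threshold (adjusted p = 0.0518) and no call among the 10 genes changed. The correlation of same-numbered deviations was -0.139 and nothing in the labels ties the numbers, so the block is an arbitrary pairing. Signs of log2 fold changes that were not called turned when a High library was left out, with ranges over the libraries left out of -0.027 to 0.24 for Znrf3, -0.011 to 0.97 for Tcf7, -2.45 to 0.17 for Lgr4, -0.25 to 2.64 for Trabd2b and -0.63 to 0.71 for Wls. For Lgr4, Trabd2b and Wls the High libraries lay on opposite sides of the Low pair, and for Znrf3 and Tcf7 High library 1 lay between the Low libraries. What set the High libraries apart was not tested. Between the High libraries DESeq2 called 369 genes lower in High library 1 against 579 by edgeR, and 0 of the 10 genes against 1. With at least 50 fragments asked for in 2 libraries the count was also 0, since Lef1 was then not tested. Notum, Axin2, Nkd2, Lgr5 and Lef1 kept their direction between High and Low in every alternative that gave a value. Depth limits Nkd1, Sp5, Rnf43, Lgr5 and Lef1, each under 60 fragments in every library.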
